A study of Mus musculus with 49 samples.

Results

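Among 49 single cells of the mouse kidney mesenchyme, 27 carried transcripts of Six2, and these 27 cells were divided by a second progenitor gene, Cited1. The cells were selected on their own expression values, in RPKM (reads per kilobase of gene length and scaled to the mapped reads of the cell): Six2 at 1 RPKM or more for all 27, then Cited1 at 1 RPKM or more for the 12 Cited1-positive cells and under 1 RPKM for the 15 Cited1-negative cells. The other 22 cells had Six2 under 1 RPKM and serve as context only. Levels of Six2 and Cited1 are therefore a description of the choice, and every other gene was compared between the 12 and the 15 cells.

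All cells came from metanephric mesenchyme dissected at 11.5 days post coitum (Theiler stage 19) from mouse embryos of mixed background and both sexes that carried the transgene Tg(Crym-EGFP)82Gsat, a green fluorescent reporter driven by the Crym gene. The dissection followed the fluorescence and reached slightly past its border, and cells were captured singly on a Fluidigm C1 chip and amplified with the SMARTer chemistry. Embryo and litter of the cells are not named, so all of them count as 1 sample: no p-value was computed, cells were not treated as replicates, and the spread given is the spread between cells. The chemistry marks neither strand nor single molecules, so a gene and an overlapping gene on the opposite strand cannot be told apart, and intervals on shares of cells (exact Clopper-Pearson, 95%) cover counting error only.

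Six2 encodes the homeodomain factor that keeps nephron progenitors of the cap mesenchyme self-renewing. Cited1 encodes a transcriptional co-regulator without a DNA-binding domain of its own, which acts through partners such as the acetyltransferases CBP (Crebbp) and p300 (Ep300) and Smad proteins. In the later kidney, cells with both genes are regarded as the least committed progenitors, and Cited1 is lost before Six2 as cells move towards induction by Wnt9b and FGF signals from and around the ureteric bud; Cited1 itself is not required for kidney formation.

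The gene list with the largest median difference between Cited1-positive and Cited1-negative cells, before any adjustment, was that of G2 and mitosis, whose promoters are known for pairing a CCAAT box, bound by the factor NF-Y, with a cell cycle homology region (CHR), bound by the MuvB core of the DREAM complex. Not every member of the list has this arrangement. The 100 bases before the RefSeq start (GRCm38.p6) are shown for 4 members that were higher in the Cited1-positive cells. These 4 were chosen because they hold both motifs within those bases. They are Ube2c (chr2:164769829-164769928, plus strand), Cdc20 (chr4:118437344-118437443, minus strand), Cdk1 (chr10:69352913-69353012, minus strand) and Kif11 (chr19:37376282-37376381, plus strand). Each is written 5′ to 3′ on the strand of its gene, and capitals mark matches to TTTGAA or CCAAT on either strand (TTCAAA and ATTGG are the same motifs read on the other strand); no 2 matches in these sequences share a base.
Ube2c: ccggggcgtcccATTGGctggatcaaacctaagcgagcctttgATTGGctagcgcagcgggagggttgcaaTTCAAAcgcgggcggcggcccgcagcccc
Cdc20: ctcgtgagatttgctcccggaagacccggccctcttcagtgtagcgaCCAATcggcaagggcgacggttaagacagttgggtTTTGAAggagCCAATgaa
Cdk1: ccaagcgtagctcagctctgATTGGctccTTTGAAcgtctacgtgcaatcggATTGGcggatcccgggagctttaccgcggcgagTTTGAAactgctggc
Kif11: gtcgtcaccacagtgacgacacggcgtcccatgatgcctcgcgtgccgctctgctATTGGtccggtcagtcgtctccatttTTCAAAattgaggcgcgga

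Cited1, the gene used to divide the Six2 cells, had a gap around its limit. It was listed at 0 in all 15 Cited1-negative cells, and in the 12 positive cells it ran from 2.11 RPKM in cell 20 through 3.94 in cell 12, 5.05 in cell 49, 10.6 in cell 19, 16.8 in cell 47, 41.3 in cell 21, 60.7 in cell 51, 85.6 in cell 13, 94.0 in cell 8, 172 in cell 33 and 222 in cell 48 to 281 in cell 36. Nothing lay between 0 and 2.11 RPKM, so a limit of 0.1 RPKM gives the same 2 groups. A 0 may be a transcript not captured. This holds above all for cell 3, the shallowest Six2 library (relative depth 0.0346), whose place among the Cited1-negative cells is uncertain. Outside the Six2 cells, 5 of 22 cells held a trace of Cited1, the highest at 0.785 RPKM. The Six2 limit also fell in a gap, with 2.24 RPKM the lowest value inside it and 0.675 RPKM the highest outside. In the table's mm9 coordinates Cited1 lies at chromosome X, 99442776 to 99447502, and Six2 at chromosome 17, 86083608 to 86087594 (the sources used here do not state whether starts are counted from 0 or from 1).

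Cells with much Six2 and cells with little occurred on both sides of the split by Cited1. Six2 was under 10 RPKM in 2 of 12 Cited1-positive cells (20 and 47) and in 6 of 15 Cited1-negative cells (3, 5, 6, 16, 28 and 31). It ran from 3.86 RPKM (median 53.2) to 112 in the Cited1-positive cells and from 2.24 (median 44.1) to 117 in the Cited1-negative cells. Crym, the gene of the reporter, ran from 3.32 (median 703) to 1383 RPKM and from 2.74 (median 395) to 1480 RPKM. Both ranges overlap over nearly their whole length, and each group holds Six2 cells with little Crym: cell 8 at 3.32 RPKM among the positive cells and cells 6 and 31 at 2.74 and 3.15 RPKM among the negative cells.

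**Figure D1:**
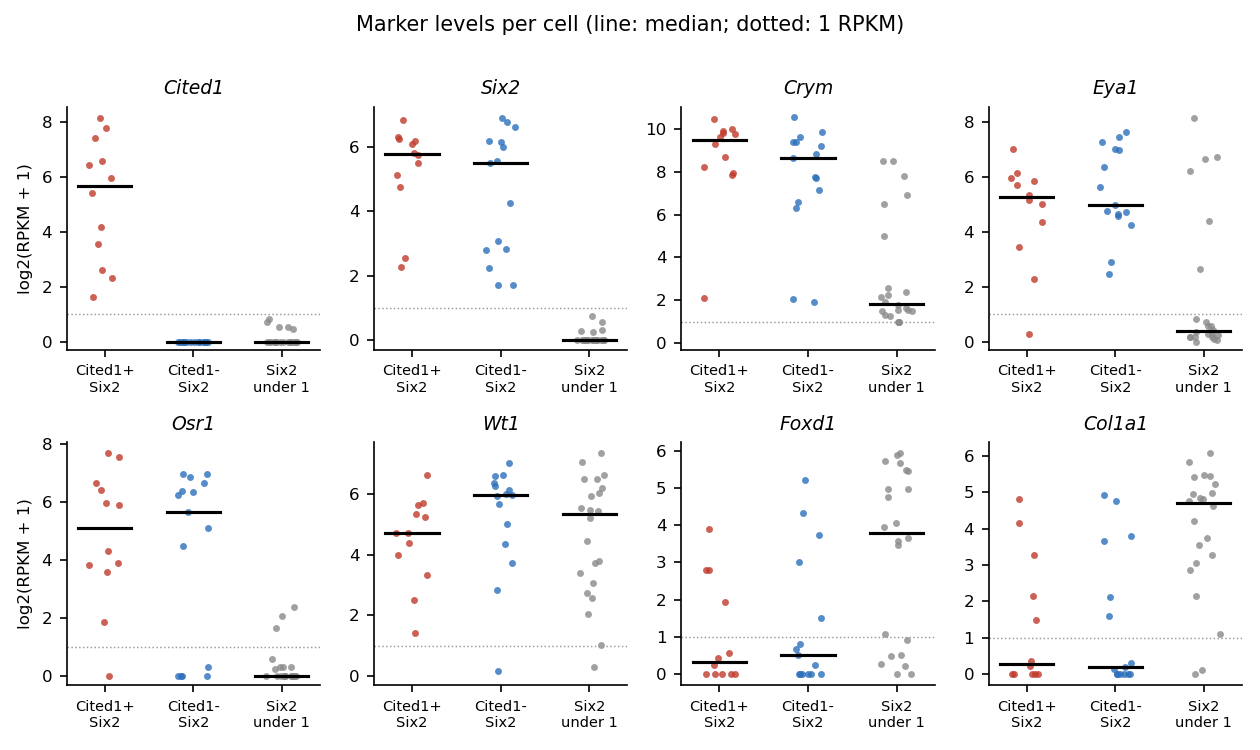
Level per cell, log2(RPKM + 1), of 8 marker genes in the 12 Cited1-positive Six2 cells, the 15 Cited1-negative Six2 cells and the 22 cells with Six2 under 1 RPKM; each point is a cell, the black line the median and the dotted line 1 RPKM. Cited1 and Six2 are separated by the choice of cells, while Crym, Eya1, Osr1, Wt1, Foxd1 and Col1a1 overlap between the Cited1-positive and Cited1-negative cells.

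For the remaining nephron progenitor genes no difference of 2 log2 units was found. Of 22 list genes, 19 were detected, at 1 RPKM or more, in at least 5 Six2 cells and were compared, and 0 of 19 differed by that much in either direction. Over all 8832 genes compared, 1.61% were higher and 0.249% lower by that much, so a count of 0 in a list of this size, or in the shorter lists that follow, is near the share over all genes. Differences are those of mean log2(RPKM + 1), Cited1-positive minus Cited1-negative, a scale that understates the change of low genes. They ran from -1.10 for Capn6 to 0.97 for Crym with a median of 0.01, beside a median of 0.19 over all genes. Fgf20 and Dpf3 were among those detected in too few Six2 cells to compare. Per cell, 7 to 16 of the 22 list genes (median 13) were detected in the Cited1-positive cells, 6 to 17 (median 12) in the Cited1-negative cells and 2 to 12 (median 6) in the cells with Six2 under 1.

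Regulators that act upstream of or beside Six2 were present in both groups. Eya1, the phosphatase that is a partner of Six2, ran from 0.220 (median 37.2) to 128 RPKM in the Cited1-positive cells and from 4.47 (median 30.7) to 200 RPKM in the negative cells, a difference of -0.73. Osr1, an early marker of the nephrogenic lineage, was detected in 11 of 12 and 10 of 15 cells (difference 0.66). Wt1, the zinc finger regulator of progenitors and later podocytes, had medians of 25.4 and 62.5 RPKM (difference -0.78), and Sall1, a zinc finger repressor of the cap, medians of 61.3 and 79.5 RPKM (difference -0.21). In each of these 4 genes the highest and lowest cells of the groups overlap.

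Homeobox and signalling members of the list were likewise found in both groups. Meox1 (difference 0.62) was detected in 9 of 12 and 11 of 15 cells and Meox2 (difference -0.50) in 8 and 12 cells. Hoxa11 (-0.04), Hoxd11 (-0.27) and Hoxc11 (0.63), members of the Hox group needed for kidney induction, were found in 8 and 8, 8 and 11, and 5 and 1 cells. Six4 (0.87) was found in 7 and 9 cells, Uncx (0.59) in 7 and 5 cells and Pax2 (0.21) in 4 and 3 cells. Itga8 (0.01), the integrin subunit that maintains Gdnf, was found in 9 and 11 cells, and Spock2 (0.42) in 11 and 12 cells. Traf1 (0.38) and Tmem100 (-0.32) were sparse, in 3 and 2 and in 3 and 4 cells. None of these differences reached 1 log2 unit, and Capn6, found in 9 and 12 cells, alone in the list passed it.

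Gdnf, the mesenchymal growth factor that makes the ureteric bud grow out, was detected in 5 of 12 Cited1-positive and 7 of 15 Cited1-negative cells and reached 162 and 119 RPKM (difference -0.42). Gfra1, its co-receptor, was found in 10 and 11 cells (difference 0.51). Robo2, the Slit receptor that limits Gdnf to its proper domain, was found in every Six2 cell, with medians of 56.1 and 28.4 RPKM (difference 0.64). The 7 genes compared of the Gdnf and guidance list had a median difference of 0.06, and 0 of 7 differed by 2 log2 units (1.61% and 0.249% of all genes).

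**Figure D2:**
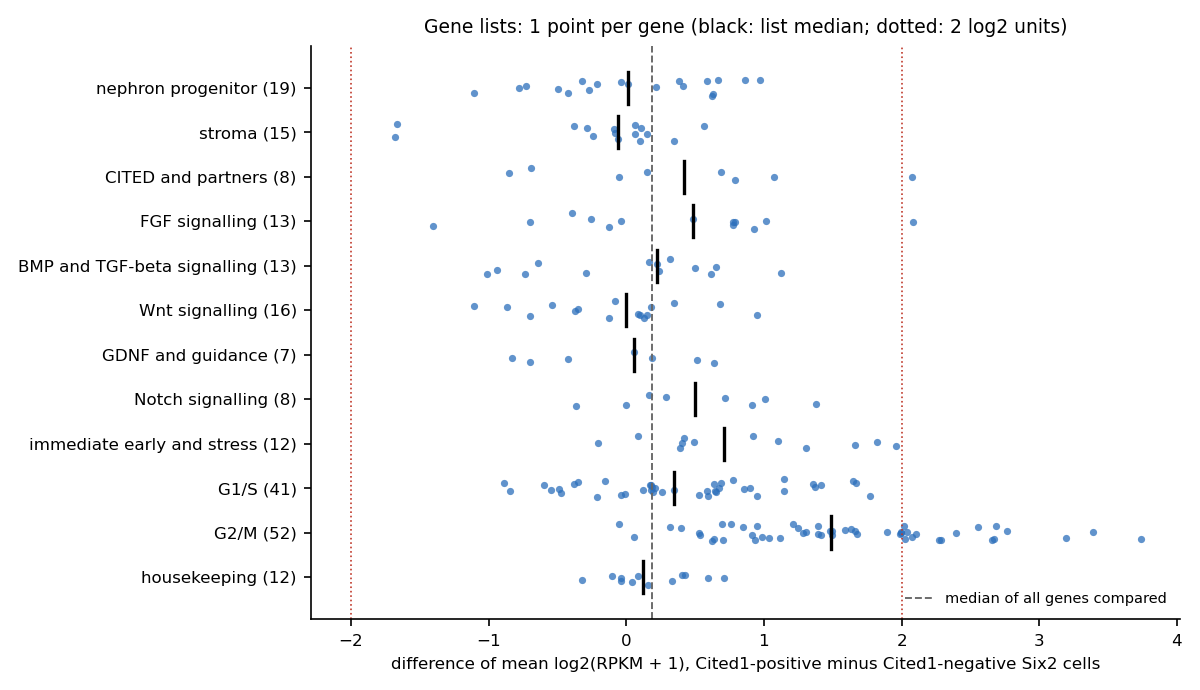
Difference of mean log2(RPKM + 1) between the 12 Cited1-positive and the 15 Cited1-negative Six2 cells for the genes of 12 lists, with the number compared in brackets; each point is a gene, the black bars are list medians, the dashed line is the median of all genes (0.19) and the dotted lines mark 2 log2 units. The nephron progenitor list is centred on 0.01 and the stroma list on -0.06, while the G2/M list is centred on 1.49.

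Over all 8832 genes compared, 142 had a mean at least 2 log2 units higher in the Cited1-positive cells (1.61% of genes) and 22 a mean at least 2 log2 units lower (0.249%). Detection followed the same imbalance: 36 genes were detected in a share of cells at least 50 percentage points higher (0.408%) and 8 in a share at least 50 points lower (0.0906%). The whole distribution leaned the same way, with 61.4% of differences above 0. The number of genes detected per cell leaned with it, from 4366 (median 5801) to 6510 in the Cited1-positive cells and from 4178 (median 5043) to 6275 in the negative cells. After a linear adjustment of each gene for that number, 102 genes were higher and 63 lower, the share of higher among both was 61.8% against 86.6% without it, and the median difference was 0.03.

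Single cells moved these counts. Relative depth, estimated from the steps between low values, was 0.699 to 1.52 in the Cited1-positive cells and 0.0346 to 1.26 in the negative cells, where cell 3 was the only Six2 cell under 0.25. Without cell 3 there were 141 higher and 28 lower genes, 39 detected more often and 4 less often. Without cells 12 and 49, the Six2 cells with 3 genes of another cell type (ureteric bud and neural), there were 172 higher and 31 lower genes, 57 detected more often and 6 less often. Without the 9 cells that also held Foxd1, 230 were higher and 136 lower, 81 were detected more often and 63 less often, and the share of higher among both was 62.8%. These counts come from 7382 genes compared between 8 and 10 cells (3.12% higher) and are not directly comparable with those of the full groups. Leaving out cell 36 raised the genes detected more often from 36 to 63. The 8 genes detected less often became 3 without cell 49, 4 without cell 12, 23, 24 or 50, and 5 without cell 31, 33 or 51, so that count rests on single cells.

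**Figure D3:**
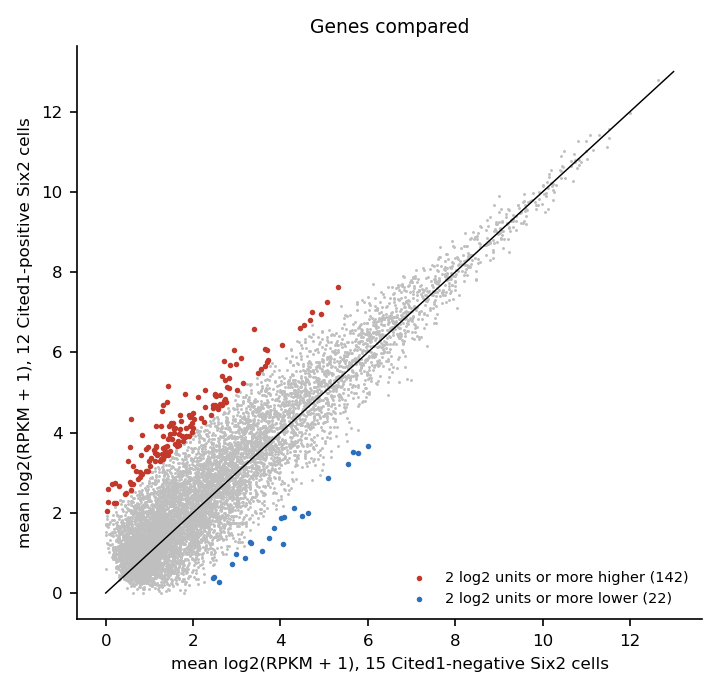
Mean log2(RPKM + 1) of 8832 genes in the 15 Cited1-negative Six2 cells (x axis) and the 12 Cited1-positive Six2 cells (y axis); each point is a gene and the line marks equal means. The 142 genes at least 2 log2 units higher lie above the line and the 22 at least 2 log2 units lower lie below it.

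G2 and mitosis genes had, without adjustment for genes detected, the largest median difference of the 16 lists with genes to compare: 16 of 52 genes compared were at least 2 log2 units higher in the Cited1-positive cells (30.8%, beside 1.61% of all genes), 0 of 52 were lower by that much, 51 of 52 differences were above 0 and their median was 1.49. The 16 genes were Aurkb, Aurka, Ube2c, Anln, Kif20b, Hmmr, Cdc20, Cdk1, Kif11, Cdca2, Kif23, Cdca8, Cenpe, Ncapd2, Ccnb1 and Nusap1. In the G1/S list 0 of 41 genes differed by 2 log2 units, near the 1.61% and 0.249% of all genes, and their median difference was 0.35. The G1/S list also leaned upward: 29 of 41 differences were above 0 (70.7%, beside 61.4% of all genes). Of these 41 genes, 8 were higher by 1 log2 unit or more and 0 lower by that much. Detection of G1/S genes per cell was close in the groups, 21 to 39 (median 30.5) of 41 genes in the positive and 14 to 38 (median 32) in the negative cells.

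Among the kinases, Aurkb, the catalytic subunit of the chromosomal passenger complex, was detected in 9 of 12 Cited1-positive cells (0 to 359 RPKM, median 66.6) and 3 of 15 Cited1-negative cells (0 to 370 RPKM, median 0), a difference of 3.74. Aurka, the spindle pole kinase, was detected in 7 and 4 cells (medians 148 and 0.310 RPKM, difference 3.39). Cdk1, the kinase that drives entry into mitosis, was detected in 11 cells of each group, but at a median of 91.3 RPKM (0.738 to 227) against 1.36 RPKM (0.603 to 178), a difference of 2.55. In all 3 genes the top of the negative range reaches into the positive range, so the groups overlap and differ in how many cells are high.

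Exit from mitosis was represented by Ube2c, the ubiquitin-conjugating enzyme of the anaphase-promoting complex, at 0.447 to 1175 RPKM (median 385) against 0 to 372 RPKM (median 1.53), a difference of 3.20. Its activator Cdc20 was detected in 8 of 12 and 4 of 15 cells (medians 22.0 and 0 RPKM, difference 2.66). Motors and spindle proteins included Kif11 in 8 and 5 cells (2.39), Kif23 in 8 and 5 cells (2.27), Kif20b in 10 and 5 cells (2.69) and Cenpe in 9 and 8 cells (2.08). Anln, needed at the cleavage furrow, was detected in 8 and 3 cells (2.76). Ccnb1, the mitotic cyclin, had medians of 167 and 0.720 RPKM and a difference of 2.03, although the highest value of all, 8013 RPKM, belonged to cell 3 of the Cited1-negative group, the shallowest Six2 library; without cell 3 its difference was 2.70.

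Cells with few and cells with many G2/M transcripts were found in both groups. The number of the 53 G2/M list genes detected per cell was 13, 22, 22, 27, 42, 48, 48, 50, 51, 52, 52 and 53 in the Cited1-positive cells (median 48). In the Cited1-negative cells it was 14, 15, 19, 19, 20, 21, 22, 23, 27, 35, 42, 42, 46, 47 and 48 (median 23). Both groups hold cells at both ends, and the 22 cells with Six2 under 1 spanned 7 to 53 with a median of 30. Within the Cited1-positive cells the G2/M count did not order with the level of Cited1. The 3 cells lowest in Cited1, cells 20, 12 and 49, had 48, 51 and 48 G2/M genes. Cell 36, the highest in Cited1, had 22, while the next highest, cells 48 and 33, had 52 each.

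**Figure D4:**
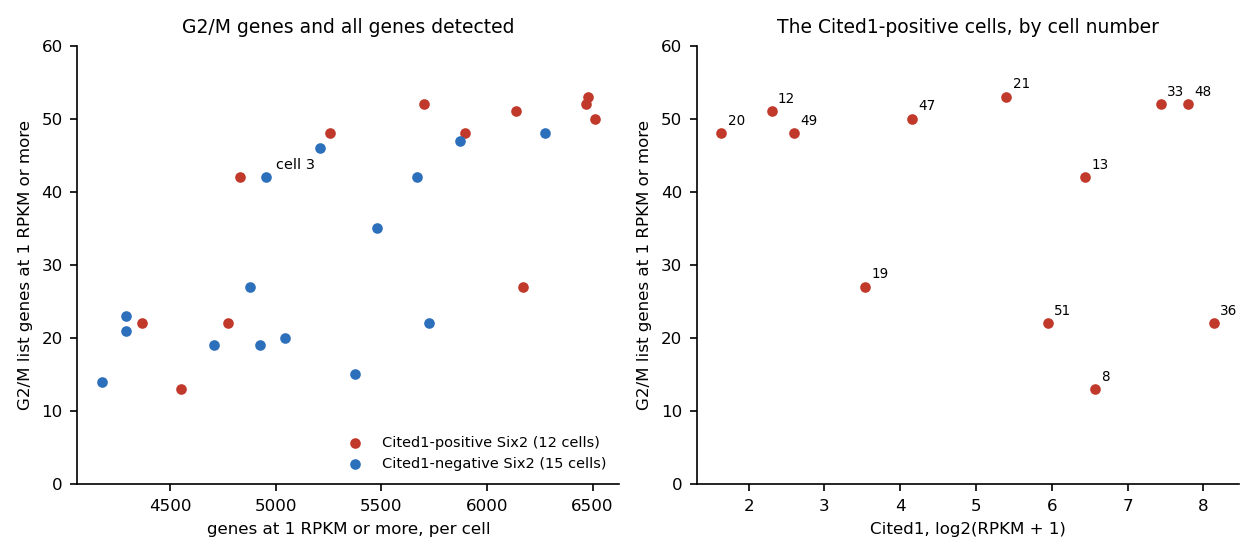
Left, number of G2/M list genes at 1 RPKM or more (of 53) against the number of all genes at 1 RPKM or more, for the 12 Cited1-positive and 15 Cited1-negative Six2 cells; right, the same G2/M number against the level of Cited1 in the 12 positive cells, labelled by cell number. Cells with many G2/M genes mostly have more genes detected in all. The 3 cells lowest in Cited1 all have 48 or more G2/M genes, as do cells 48 and 33, the next highest in Cited1 after cell 36.

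The G2/M result depended on where Cited1 was divided and on the cells in each group. Dividing Cited1 at 10 RPKM moves cells 20, 12 and 49 to the negative side. In that setting 1 of 52 G2/M genes (1.92%) was at least 2 log2 units higher, near the 1.65% of all genes. The list median was 0.66, beside 0.13 over all genes. With an adjustment for genes detected per cell, 4 of 52 passed (7.69%, beside 1.15% of all genes) and the median was 0.67. The list therefore no longer had the largest median: it was 0.68 in the immediate early and stress list and -0.68 in the stroma list. Leaving out 1 cell at a time gave 10 genes without cell 33 and up to 20 without other cells, and without the shallow cell 3 there were 18. Without cells 12 and 49 there were 13, and without the cells with Foxd1 there were 16 of 51.

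The motifs printed above were counted over the list. In windows from 250 bases before to 50 bases after the RefSeq start, 14 of the 16 genes matched the promoter table (all but Aurkb and Cdca2), and TTTGAA occurred on either strand in 11 of 14 (78.6%). It occurred in 22 of 33 matched other members of the list (66.7%) and in 14.1% of the 7094 compared genes that matched. CCAAT on either strand occurred in 11 of 14 (78.6%), 25 of 33 (75.8%) and 44.0% of them, and both motifs in 9 of 14 (64.3%), 17 of 33 (51.5%) and 6.03%. Of all 32851 windows in the table, 17.9% held TTTGAA, 37.4% CCAAT and 6.95% both; the motifs may share a base and such cases were counted. A match describes letters in a window and not binding.

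Outside the cell cycle, Cited2, the paralogue of Cited1 that binds the same co-activators, was the 1 gene of 8 compared in the list of Cited1 relatives and partners that differed by 2 log2 units, beside 1.61% of all genes. It was detected in 12 of 12 Cited1-positive cells (100%, interval 73.5 to 100%), from 10.1 (median 27.1) to 68.1 RPKM. In the Cited1-negative cells it was detected in 10 of 15 (interval 38.4 to 88.2%), from 0 (median 3.97) to 95.2 RPKM, so the negative group holds both the lowest and the highest cell and the ranges overlap. Of the 22 cells with Six2 under 1, 6 detected it, at up to 16.3 RPKM. The difference was 2.08; it was 1.56 after adjustment for genes detected, 1.51 with Cited1 divided at 10 RPKM, 1.88 without the shallow cell 3, 1.99 without the cells with markers of another type, and 1.88 to 2.35 when single cells were left out. In the table's mm9 coordinates Cited2 lies at chromosome 10, 17443034 to 17445480.

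The co-activators and Smads of that list had differences in both directions. Crebbp had medians of 23.1 and 9.20 RPKM (difference 0.69) and Ep300 medians of 3.12 and 1.18 RPKM (difference -0.05). Smad3 was detected in 9 of 12 and 7 of 15 cells (1.07) and Smad2 in 9 and 8 (0.79), while Smad4, the shared partner of both Smad branches, was in 10 and 13 cells (-0.85) and Smad1 in 6 and 9 (-0.69). In the list of BMP and TGF-beta ligands, receptors and targets, 0 of 13 differed by 2 log2 units (1.61% and 0.249% of all genes) and the median was 0.22, beside 0.19 over all genes. Bmp7, a progenitor survival signal, had a difference of 0.22, and the target genes Id1, Id2 and Id3 had differences of 0.32, -0.94 and 0.17.

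In FGF signalling 1 of 13 genes compared passed 2 log2 units (1.61% of all genes were higher by that much): Spry4, a feedback inhibitor induced by FGF receptors. It was detected in 7 of 12 Cited1-positive cells (interval 27.7 to 84.8%; 0 to 73.8 RPKM, median 18.5) and 4 of 15 Cited1-negative cells (interval 7.79 to 55.1%; 0 to 31.3 RPKM, median 0), a difference of 2.08. It was under 2 log2 units, and the list had 0 higher genes, without the Foxd1 cells (1.42), without the cells with markers of another type (1.79), with Cited1 divided at 10 RPKM (1.75), after adjustment for genes detected (1.73) and with median-of-ratios scaling (1.97). The cells with Six2 under 1 also held it, in 7 of 22 cells and at up to 267 RPKM. Its relatives Spry1 and Spry2 had differences of 0.78 and 0.49, and the FGF-responsive factors Etv1, Etv4 and Etv5 had 1.02, 0.93 and -0.12. Among receptors, Fgfr1 was detected in 12 and 13 cells (0.78) and Fgfr2 in 10 and 14 (-0.39). Of the ligands, Fgf10 had medians of 1.21 and 9.01 RPKM (-1.40) and Fgf9 was detected in 1 and 5 cells (-0.70). The list therefore held members on both sides, with a median of 0.49.

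Wnt genes were centred near 0, with 0 of 16 past 2 log2 units (1.61% and 0.249% of all genes) and a median of 0.00. Sfrp2, a secreted Wnt modulator, was detected in all 15 Cited1-negative cells (1.29 to 122 RPKM, median 16.4) and in 7 of 12 Cited1-positive cells (0 to 193 RPKM, median 5.03), a difference of -0.87. Tcf7, a Wnt effector and target, was detected in 3 and 7 cells (-1.11). Tcf7l1 was detected in 11 and 15 cells and had a difference of 0.68. Of the 16 differences, 8 were above 0 and 8 below, with a highest value of 0.95. Ctnnb1, which encodes beta-catenin, was detected in every Six2 cell with medians of 151 and 170 RPKM. In the Notch list 0 of 8 genes passed 2 log2 units, again near the 1.61% and 0.249% of all genes, and the median was 0.50; its targets Hes1 and Heyl had differences of 1.00 and 1.38.

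Genes of early nephron commitment were scarce in both groups. Wnt4, the signal of the pretubular aggregate, was listed at 0 in all 12 Cited1-positive cells, a count that still leaves room for 25% of cells (3 of 12, with 26.5% as the exact upper limit), and was detected in 3 of 15 Cited1-negative cells: cell 28 at 52.2 RPKM, cell 6 at 2.71 and cell 23 at 1.91. The 22 cells with Six2 under 1 had it at 0. Pax8 was detected in 3 cells of each group (difference -0.06), Jag1 in 2 and 4 (-0.01) and Cdh4 in 3 and 2 (0.34). Ccnd1, the G1 cyclin and a known Wnt target in induced cells, was detected in 6 of 12 Cited1-positive cells (0 to 27.7 RPKM, median 1.4) and 12 of 15 Cited1-negative cells (0 to 51.7 RPKM, median 14.9), a difference of -1.77. It was -2.29 after adjustment for genes detected and -1.58 with Cited1 divided at 10 RPKM, and the groups overlap.

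Of the stromal genes, 0 of 15 compared reached 2 log2 units (1.61% and 0.249% of all genes) and the list median was -0.06, but the 2 genes of retinoic acid signalling in the list lay well below the rest. Aldh1a2, the enzyme that makes retinoic acid, was detected in 5 of 12 Cited1-positive cells (interval 15.2 to 72.3%; 0 to 58.9 RPKM, median 0.286) and in 10 of 15 Cited1-negative cells (interval 38.4 to 88.2%; 0 to 244 RPKM, median 8.84), a difference of -1.66. Rarb, a retinoic acid receptor that is also a retinoic acid target, was detected in 3 of 12 (0 to 74.6 RPKM, median 0.501) and 9 of 15 cells (0 to 72.4 RPKM, median 7.14), a difference of -1.68. After adjustment for genes detected both passed 2 log2 units, at -2.54 and -2.16, whereas with Cited1 divided at 10 RPKM Aldh1a2 was -0.66 and Rarb -1.14, and with Six2 at 10 RPKM or more they were -0.39 and -0.70.

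Without adjustment for genes detected, the rest of the stromal list was even between the groups. After that adjustment the median over all 15 stromal genes was -0.68, beside 0.03 over all genes compared, so the lean was not limited to Aldh1a2 and Rarb. The values that follow are unadjusted. Foxd1, the defining stromal factor, was detected in 4 of 12 and 5 of 15 cells, at up to 13.8 and 36.4 RPKM, beside 15 of the 22 cells with Six2 under 1. Col1a1 was in 5 and 6 cells, Col1a2 in 4 and 5, Col3a1 in 5 and 6 and Pdgfra in 4 and 4, with differences of -0.06, -0.09, -0.24 and -0.08. Meis1 and Meis2, found throughout this mesenchyme, were in every Six2 cell (0.56 and 0.06), and Tcf21 was in 11 and 10 cells (0.06). Tbx18 (-0.38), Fat4 (0.10), Pdgfrb (0.11), Sfrp1 (0.15) and Cxcl12 (0.34) completed the 15 genes, while Ecm1, Ntn1, Dcn and Lum were in too few Six2 cells to compare. Per cell, 3 to 15 stromal genes of 19 (median 6) were detected in the positive and 3 to 17 (median 6) in the negative cells.

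Markers of other cell types differed in how often they occurred in the Six2 cells. None of the ureteric bud, endothelial or macrophage genes was detected in 5 Six2 cells. Ureteric bud genes numbered 0 to 3 per Cited1-positive cell and 0 to 2 per negative cell, with a median of 0 in each; Epcam was listed at 0 in all 12 positive cells and reached 1 RPKM in 1 of 15 negative cells, cell 29 at 163 RPKM. Of the muscle list, 2 of 6 genes are in the table, and Des, an intermediate filament gene, was in 10 of 12 and 11 of 15 cells (medians 22.2 and 7.30 RPKM, difference 0.70), while Actc1 was in 1 cell of each group. The summed level of the muscle list was 0 to 239 RPKM in the positive and 0 to 138 RPKM in the negative cells. Of the neural list, 5 of 7 genes are in the table, and Elavl4 was in 6 and 10 cells (medians 3.52 and 1.62 RPKM, difference -0.48), while Tubb3 stayed under 1 RPKM in all Six2 cells. The summed level of the neural list was 0 to 111 RPKM and 0.382 to 101 RPKM. The part of such transcripts in the differences was not tested. Of the immediate early and stress genes, 11 of 12 compared had differences above 0 (61.4% of all genes) with a median of 0.71, among them Fos (6 of 12 and 3 of 15 cells, 1.96), Egr1 (6 and 3 cells, 1.66) and Fosb (7 and 2 cells, 1.30). By the limit of 2 log2 units 0 of 12 were higher (1.61% of all genes). With a pseudocount of 0.1 the count was 4 of 12 (8.36% of all genes), and with medians over cells 2 of 12 (8.55%). Without the cells with markers of another type it was 2 of 12 (2.01%). The 12 housekeeping genes had a median of 0.12 and 0 of 12 reached 2 log2 units.

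**Figure D5:**
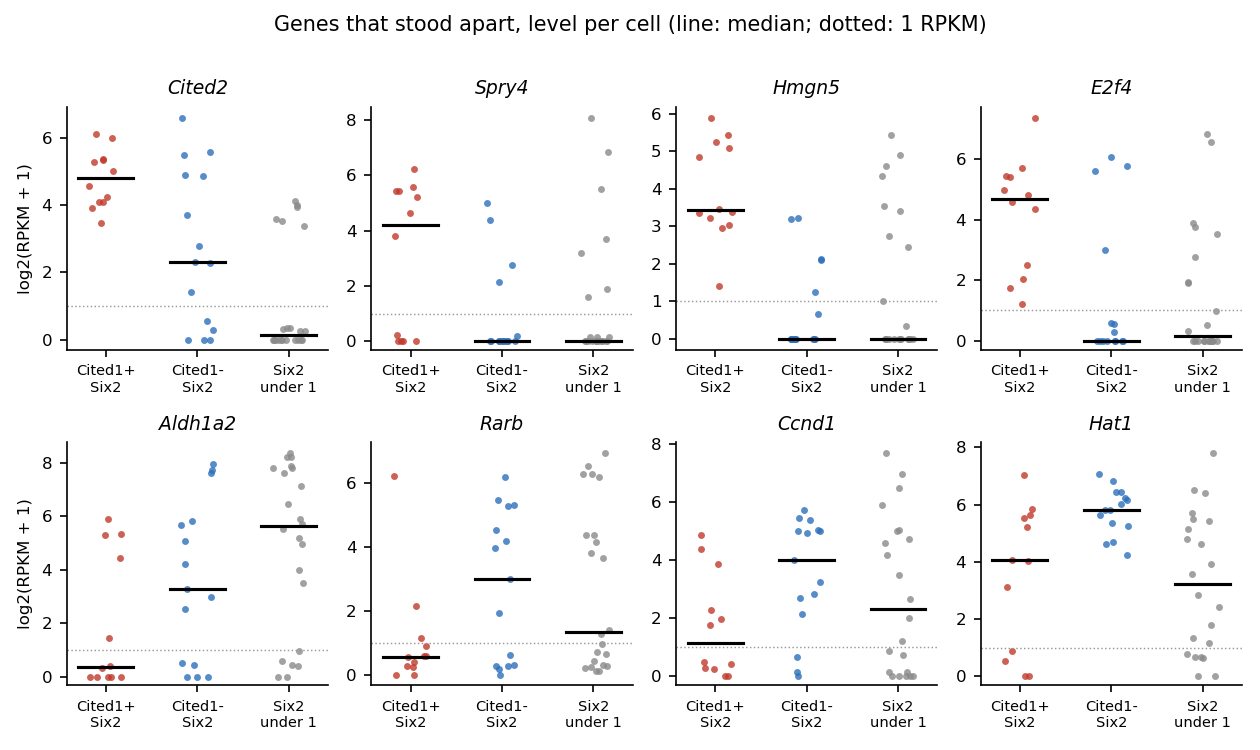
Level per cell, log2(RPKM + 1), of Cited2, Spry4, Hmgn5 and E2f4, with higher means in the Cited1-positive Six2 cells, and of Aldh1a2, Rarb, Ccnd1 and Hat1, with lower means; points are cells, the black line is the median and the dotted line 1 RPKM. Hmgn5 and E2f4 were at 1 RPKM or more in all 12 Cited1-positive cells and Hat1 in all 15 Cited1-negative cells, yet the ranges overlap in every gene shown.

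The 15 genes with the largest positive difference, among those detected in at least 8 Six2 cells, included 3 of the G2/M list (Aurkb, Aurka and Ube2c). That list makes up 52 of all 8832 genes compared. Hmgn5, a nucleosome-binding protein, was the most uniform of them: it was detected in 12 of 12 Cited1-positive cells (1.66 to 58.2 RPKM, median 9.72) and 5 of 15 Cited1-negative cells (0 to 8.25 RPKM, median 0), a difference of 3.11 that stayed between 2.55 and 3.42 under all alternatives but the pseudocount of 0.1 (5.16). 9430023L20Rik was detected in 12 of 12 and 6 of 15 cells (medians 94.1 and 0.385 RPKM, difference 3.08) and 2610039C10Rik in 11 and 4 cells (3.25). Tmem120a had the largest difference of all, 3.76, from 8 and 4 cells with medians of 39.8 and 0 RPKM.

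Others of these genes serve metabolism and protein assembly, among them Coasy, the enzyme of the last steps of coenzyme A synthesis (10 and 5 cells, 3.02), and Pih1d1, a co-chaperone subunit (11 and 9 cells, 2.85). Nup37, a nuclear pore subunit that also sits at kinetochores, was in 10 and 5 cells (3.13) and Asf1b, a histone chaperone of dividing cells, in 9 and 7 cells (2.78). Cd2bp2 was in 10 and 6 cells (3.37), Kbtbd4 in 11 and 10 (3.12) and Ogfr in 10 and 5 (2.90). Chosen after their values were seen, E2f4, an E2F factor that mostly represses cell cycle genes, was detected in 12 of 12 and 4 of 15 cells (difference 2.72), and Vaultrc5, a small noncoding vault RNA, in 11 and 2 cells (2.01), the largest gaps in detection of all genes compared.

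Genes with lower means in the Cited1-positive cells covered varied functions. Of the 22, 0 belonged to a list, and lists made up 2.49% of all genes compared. Slc35c2, a transporter-like protein of the secretory pathway that affects fucosylation of Notch, was detected in 3 of 12 Cited1-positive cells (0 to 116 RPKM, median 0.143) and 11 of 15 Cited1-negative cells (0 to 197 RPKM, median 27.0), a difference of -2.86. Hat1, the histone acetyltransferase that marks newly made H4, was detected in all 15 Cited1-negative cells (18.0 to 132 RPKM, median 55.2) and in 8 of 12 positive cells (0 to 132 RPKM, median 15.7), a difference of -2.28. Ift140, a subunit of the ciliary transport complex, was in 1 of 12 and 9 of 15 cells (-2.32). M6pr, a receptor that sorts lysosomal enzymes, was in 11 and 15 cells with medians of 9.23 and 108 RPKM (-2.33).

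Others among the 15 lowest were Abcb8, a mitochondrial ABC transporter (6 and 14 cells, -2.63), Tsta3, which makes GDP-fucose (5 and 13 cells, -2.21), Efna1, an ephrin ligand (5 and 11 cells, -2.18), Rassf1 (4 and 9 cells, -2.53) and Vasn, a membrane protein that binds TGF-beta (3 and 10 cells, -2.16). Pabpc4l (-2.58), Styx (-2.36), Arxes2 (-2.33), Myg1 (-2.32), Akap8l (-2.25) and Mgst3 (-2.17) completed them. The ranges of the 2 groups overlap in each of the 15 genes. Their differences were negative under every alternative tried, with Tsta3 the closest to 0 at -0.40. These 15 genes, like the 15 highest, were picked by their differences in the same cells. The alternatives reuse most of those cells, so they are no separate test of these genes.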

How the data were processed

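RPKM values of 49 cells were taken as deposited; they are the authors' values, as the column names per the file headers show, and no raw counts or read totals were used here. The submitters' processing notes name TopHat 1.4.1, DESeq and mm9, without role or order; which read counter and annotation were used is not stated in the sources at hand. The table holds 13093 genes, each above 3 RPKM in at least 1 cell (smallest maximum 3.0031); 26 symbols stand on more than 1 row and rows were kept apart by gene ID. Of 320 list genes, 288 are in the table, and 0 columns of cell values were left unused. Reads per cell were not recovered; relative depth was read from the steps between values under 8 RPKM.

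Cells were grouped by Six2 and Cited1 at 1 RPKM. Genes detected (1 RPKM) in at least 5 of the 27 cells, without Six2 and Cited1, were compared by mean log2(RPKM + 1), at a limit of 2 log2 units, and by the share of cells, at a limit of 50 percentage points. No doublet caller was run. Named genes are the nephron progenitor and stroma lists, from each other list the genes past 2 log2 units and up to 4 others found in most cells, and the 15 highest and 15 lowest differences among genes detected in at least 8 cells; further list members, E2f4 and Vaultrc5 were named after their values were seen. Some genes that the rule names are not reported here. The cells and lists were chosen with earlier results of these data known.

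Alternatives were the pseudocount, the low-value filter, the Six2, Cited1 and detection limits, rescaling, adjustment for genes detected, medians, and cells left out. Scripts (Python 3.11.15, numpy 2.4.6, pandas 2.3.3, scipy 1.17.1, matplotlib 3.10.9) were tested on simulated data. Promoters are RefSeq windows of GRCm38.p6, named by gene ID and otherwise by symbol, and were not combined with mm9 coordinates. The 8832 genes compared carry 8827 different symbols, of which 7094 matched.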

Additional observations from a re-analysis of the deposited data

How the results depend on the processing

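The 142 higher, 22 lower, 36 more often and 8 less often detected genes, the 16 G2/M genes and the 0 nephron progenitor genes past 2 log2 units were recomputed under each alternative. With a pseudocount of 0.1 there were 738 higher, 174 lower and 27 G2/M genes, and with medians over cells 755, 198 and 29. With Cited1 divided at 10 RPKM there were 146 higher, 37 lower, 76 more often and 1 G2/M gene. With Six2 at 10 RPKM there were 281 higher, 79 lower, 99 more often, 17 less often and 1 progenitor gene (Capn6, -2.26). That setting compared 7804 genes between 10 and 9 cells (3.6% higher), and the setting without the Foxd1 cells 7382 genes between 8 and 10 cells. Their counts are therefore not directly comparable with those of 8832 genes in 12 and 15 cells. Without the Foxd1 cells there were 230 higher, 136 lower, 81 more often and 63 less often; without the shallow cell, 4 less often; without the cells with markers of another type, 57 more often; with detection at 5 RPKM, 3 less often. Adjusted for genes detected, 63 were lower and 4 G2/M genes higher. An adjustment for the number of G2/M genes detected, chosen after seeing the data, gave 121 higher and 55 lower (68.8% higher among both) and by construction removed the G2/M genes (0 higher), and Ccnb1 had -0.58. Leaving out single cells gave 131 to 184 higher, 19 to 29 lower, 29 to 63 more often, 3 to 11 less often, 10 to 20 G2/M genes and 0 progenitor genes. The cause of these shifts was not tested. No paired analysis was possible because all cells form 1 group and their numbers are only names. Depth limits low genes: a value of 0 may be a transcript not captured.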
